A study of Caenorhabditis elegans with 4 samples.

Results

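The regions described here are the places on chromosome II of Caenorhabditis elegans where a chromatin immunoprecipitation sequencing (ChIP-seq) peak of the protein LIN-53 was deposited. They were chosen by position alone. All chromosome II peaks of both ChIP peak lists were taken, and peaks that shared at least 1 bp were joined into a region. This gave 443 regions, out of 2662 in the whole series. Both lists held 236 of them, 120 were in the list of replicate 1 only and 87 were in the list of replicate 2 only. The study used 2 ChIP libraries and 2 input DNA libraries from L3 larvae of the wild-type strain N2, grown at 20 °C as a mixed population of males and hermaphrodites. The ChIP libraries were made with a rabbit polyclonal antibody to LIN-53, and no group carried a mutation or a treatment. The inputs have no interval list among the files analysed, so every value below comes from ChIP libraries of 1 group. Nothing in the labels says whether the replicates were separate cultures, so differences between them may be technical.

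LIN-53 is a WD-repeat histone-binding protein related to the mammalian retinoblastoma-binding proteins. It has no enzymatic activity of its own and acts as a subunit of several chromatin complexes, among them the DRM repressor complex, the NuRD deacetylase complex and the chromatin assembly factor that deposits histones. In worms it is known as a synthetic multivulva gene product that acts with the retinoblastoma homolog LIN-35. The chromosomes of this worm have a spindle-attachment site all along their length and no single centromere, and autosomes are commonly divided into a gene-rich centre and repeat-rich arms.

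Positions are those of the WormBase build WS220, as the file headers state, and count from the left end of the chromosome. The gene table at hand refers to another build, and no genome of WS220 was used here. Genes and sequences at the regions were therefore not analysed. The furthest interval end on chromosome II, 15279218, stood for its length. The deposited score of a replicate peak has no named scale. It was used as the authors' own value for ranking peaks within a list, and ratios between the lists assume that both use 1 scale. Where several peaks of a list fell in a region, the highest score was taken. The depth behind each peak is unknown.

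Of the regions on chromosome II, 53.3% were in both replicate lists (236 of 443 regions, 95% exact interval 48.5 to 58.0%), beside 46.4% over all regions of the series. On the other 4 autosomes it was 47.5% (957 of 2016, 45.3 to 49.7%). The difference of 5.80 percentage points was not past the threshold of 0.05 after adjustment over 4 tests (Fisher's exact p = 0.0275, Benjamini-Hochberg adjusted p = 0.110). It was 0.844 points when peaks up to 500 bp apart were joined (Fisher's exact p = 0.809) and 8.78 points with peaks at or above the median score of their list (Fisher's exact, adjusted p = 0.0650). Against all other chromosomes, X included, it was 8.25 points and past the threshold (Fisher's exact, adjusted p = 0.00690). By chromosome, the share was 53.3% on II, 50.5% on I, 48.6% on III, 42.1% on IV and 48.7% on V. These tests treat regions as independent, although neighbouring regions can share a source.

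Chromosome II held 15.4 regions in both lists per Mb, against 14.2 per Mb on the other autosomes. The density ratio was 1.08 and not past the threshold (95% exact interval 0.937 to 1.25, exact binomial p = 0.264, adjusted p = 0.527). Against all other chromosomes, X included, it was 1.31 and past the threshold (exact binomial, adjusted p = 0.00106), with 2.37 per Mb on X. Among the autosomes its density stood between those of III (18.1 per Mb) and IV (12.6 per Mb). The peaks of replicate 2 alone gave a ratio of 0.948 and those of replicate 1 alone gave 1.06.

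The regions were spread very unevenly between the ends of the chromosome. When chromosome II was divided into 3 sections of equal length (33.3% each, 5.09 Mb), the left section held 44 regions in both lists, the middle section 85 and the right section 107. This is 18.6% on the left (95% exact interval 13.9 to 24.2%), against 32.9% on the other autosomes (315 of 957). On the right it is 45.3% (38.9 to 51.9%), against 29.4% on the other autosomes (281 of 957). The sections met at positions 5093072 and 10186145. The comparison of the left and right sections was added after the values had been seen, so its p-values restate the observation that prompted it. With adjustment over 6 tests, Fisher's exact test gave an adjusted p of 3.61e-05 for the left section and 2.60e-05 for the right. These values treat regions as independent and pool the other autosomes. They measure counting error and not the spread between chromosomes. The middle section held 36.0% of the regions on II and 37.7% on the other autosomes, a difference of -1.71 points (Fisher's exact p = 0.653, adjusted p = 0.716). Over all 443 regions of II, one-list regions included, the left section held 22.8%, the middle 33.4% and the right 43.8%. On the other autosomes these shares were 31.7%, 38.2% and 30.1%. The difference on the left was then smaller, at -8.90 points, and that in the middle larger, at -4.84 points.

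The skew was present in each of the deposited lists. In replicate 1, 70 of 358 chromosome II peaks lay in the left section (19.6%, against 32.2% on the other autosomes) and 158 in the right section (44.1%, against 28.4%). In replicate 2, 75 of 337 peaks lay on the left (22.3%, against 31.5%) and 156 on the right (46.3%, against 31.5%). The series-wide list of consistent sites had 28 of its 132 chromosome II sites on the left (21.2%, against 33.0%) and 58 on the right (43.9%, against 31.2%). The replicate lists, called from separate libraries, gave the same order of sections, left below middle below right. The regions in both lists were built from these peaks, and every series site overlapped a peak. The lists are therefore no separate support for the skew of those regions.

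**Figure D1:**
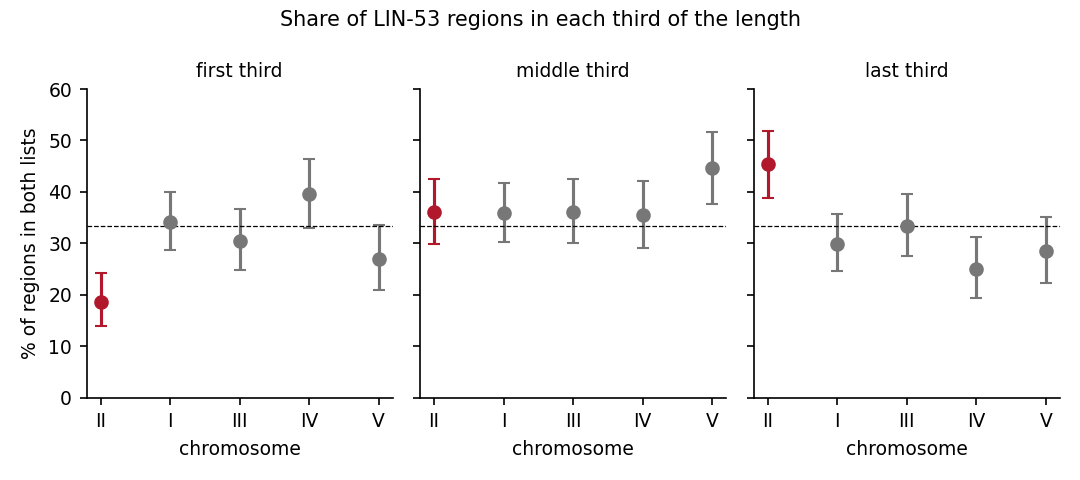
Share of the regions in both lists that lay in the left (first), middle and right (last) section, each 33.3% of the length, of chromosome II (red) and of each other autosome (grey), in percent, with 95% exact intervals. The dashed line marks an even share of 33.3%. Chromosome II is at 18.6% in the left section and at 45.3% in the right section, and lies among the others in the middle.

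No other autosome had so small a share on the left or so large a share on the right. The left section held 18.6% of the regions on II, 34.2% on I, 30.5% on III, 39.5% on IV and 27.0% on V. The right section held 45.3% on II, 29.9% on I, 33.3% on III, 25% on IV and 28.4% on V. Chromosome IV thus leaned the other way. When each of these chromosomes was left out in turn, the difference of II from the rest stayed between -15.9 and -12.3 points on the left and between 14.7 and 17.4 points on the right. Such shares are relative to the total of each chromosome and do not give density. The left section of II held 8.64 regions in both lists per Mb, beside 9.75 per Mb over the whole of chromosome V.

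Within the left section, the end of the chromosome differed from what followed. The outermost 10% of the length held 19 regions in both lists (12.4 per Mb), while the next 2 bins of that size held 7 each (4.58 per Mb). Of the 19, 6 lay in a single stretch of 4803 bp, from 1130330 to 1135132, which accounts for part of the contrast. The other autosomes together had 13.4 and 15.03 per Mb in those 2 bins, and the lowest of them, chromosome V, had 7.17 and 9.56 per Mb. Sparse bins occurred on other autosomes as well, since chromosome V had 4.30 per Mb in bin 9 and chromosome IV had 6.30 per Mb in bin 4. The following bin of II held 32 regions (20.9 per Mb). At the right end the last bin held 41 regions, or 26.8 per Mb, against 11.9 per Mb on the other autosomes. Of these 41, 9 lay in 1 window of 100 kb, from 13800001 to 13900000, so part of this height came from a local group. Each of the other 4 autosomes had at most 18.2 per Mb in its last bin.

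**Figure D2:**
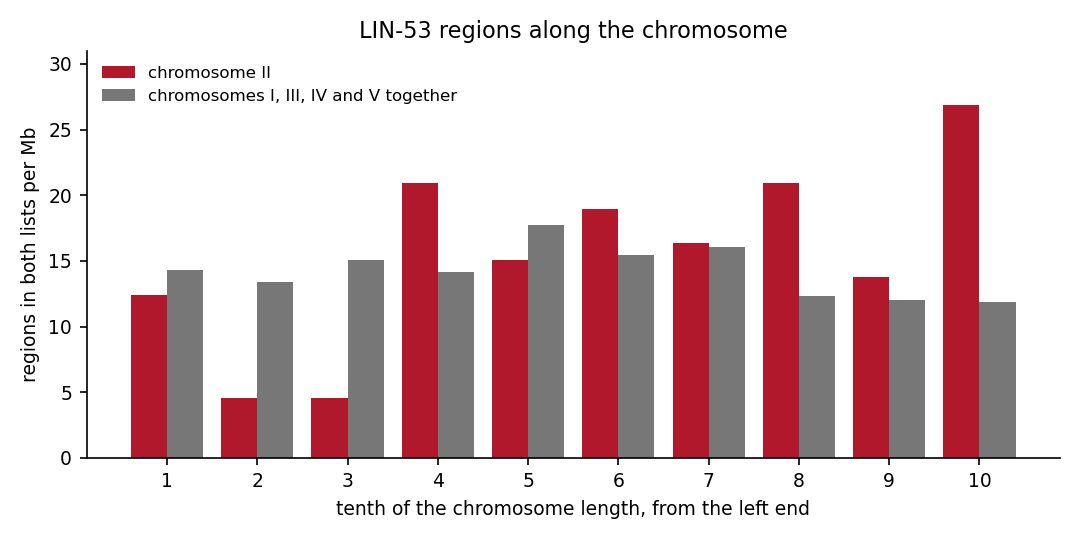
Density of the regions in both lists (regions per Mb) in bins of 10% of the chromosome length, from the left end, on chromosome II (red) and on chromosomes I, III, IV and V together (grey). Bins 2 and 3 of chromosome II stand at 4.58 per Mb, and the last bin is the highest, at 26.8 per Mb. Of the 41 regions in that bin, 9 lay in 1 window of 100 kb.

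Occupied ground was thinned out on the left as well. Of 51 windows of 100 kb in the left section, 27 had a region in both lists (52.9%). In the middle section 39 of 51 windows had one (76.5%), and in the right section 42 of 51 (82.4%). The window at the border of the left and middle sections counted in both. The window at the border of the middle and right sections, from 10100001, counted only in the right. It also held a middle-section region in both lists, at 10174462 to 10174714. The last window of the chromosome, from 15200001, was left out, although it held a region in both lists at 15232694 to 15232899. Shares as low or lower were seen in both end sections of chromosome V, at 47.1% on the left and 44.3% on the right, and the right section of chromosome IV had 54.2%. The 4 longest stretches of II without a region in both lists all lay in the left section. The longest ran for 521 kb, between 3523850 and 4044435. The next was 479 kb long, between 650847 and 1130330. The others measured 446 kb, ending at 3523678, and 398 kb, between 1661591 and 2059107.

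The longest empty stretch was not empty in the single lists. It held 10 regions of 1 list, and these included the highest-scoring regions of one list only on the whole chromosome. Replicate 2 had 4 neighbouring peaks between 3796456 and 3797329, with scores of 22.6, 12.2, 8.55 and 31.3, and replicate 1 had none there. Replicate 1 had a peak at 3808186 to 3808363 with a score of 27.9, and replicate 2 had none. Another peak of replicate 1 only, at 3682926 to 3683050, scored 18.8.

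Regions on the left were fewer, and their scores covered much the same range. The median replicate 1 score of the regions in both lists was 35.03 in the left section, 28.55 in the middle and 25.3 on the right. In replicate 2 the medians were 13.3, 16.2 and 12.4 in the left, middle and right sections. Median widths were 215.5, 204 and 213 bp. The order of the sections thus differed between the replicates, and the ranges overlapped, from 3.66 to 183 on the left and from 2.22 to 186 on the right in replicate 1. The share of regions that were in both lists was 43.6% on the left (44 of 101), 57.4% in the middle (85 of 148) and 55.2% on the right (107 of 194). Regions of replicate 1 only numbered 26, 45 and 49 from left to right, and those of replicate 2 only numbered 31, 18 and 38.

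The highest-ranked region of the chromosome lay in the sparse left section. Regions in both lists were ranked by the mean of their score ranks in both replicates, and the 15 best are described here. The region at 650386 to 650847 came first, with scores of 183 in replicate 1 and 213 in replicate 2. It was followed, after the stretch of 479 kb without a region in both lists, by a group of weaker regions. That stretch held 2 regions of replicate 2 only, with scores of 12.4 and 7.87. The left section held 2 more of the 15. The region at 1320461 to 1320851 scored 119 and 85.2 in replicates 1 and 2. The region at 2221559 to 2221803 scored 80.1 and 203, so it was among the 2 highest of replicate 2 but far lower in replicate 1. This region and the first were the 2 of the 15 with the higher score in replicate 2.

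The middle section held 4 of the 15. The region at 5346333 to 5346712 scored 139 in replicate 1 and 88.8 in replicate 2. The region at 8328907 to 8329294 scored 123 and 81.2 in the same order. Those at 6269808 to 6270136 (129.85 and 47.2) and 8569284 to 8569570 (121 and 50.8) had a lower replicate 2 score. The lowest score among these 4 in either list was 47.2.

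The right section held 8 of the 15. Scores of 186 in replicate 1 and 98.6 in replicate 2 belonged to the region at 15010374 to 15010729. The region at 11534868 to 11535062 scored 166 and 110 in replicates 1 and 2 and was the narrowest of the 15, at 195 bp. The region at 10563313 to 10563841 scored 166 and 103 and was the widest of them, at 529 bp. These 3 regions took ranks 2 to 4 on the chromosome.

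The remaining 5 on the right ranked between 5 and 14. The region at 10798478 to 10798754 scored 175 in replicate 1 and 75.25 in replicate 2, and that at 14383588 to 14383869 scored 127 and 65.8. The region at 11132565 to 11132760 scored 157 and 49.3. Those at 11980079 to 11980316 and 14357846 to 14358142 scored 108 and 104 in replicate 1, and 79.8 and 65.55 in replicate 2. When each replicate was ranked alone, its 15 highest regions shared 8 with the 15 highest of the other.

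Scores agreed in order between the replicates, with a wide scatter in size. Over the 236 regions in both lists Spearman's rho was 0.762, and over the 957 regions of the other autosomes it was 0.778. These are descriptions across regions that share their 2 libraries, and no test was made. Within the left, middle and right sections rho was 0.723, 0.791 and 0.756. The median score on II was 27.2 in replicate 1 (range 2.22 to 186) and 13.6 in replicate 2 (range 2.05 to 213). Medians on the other autosomes were 26.4 and 11.9.

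Replicate 1 had the higher score in 199 of the 236 regions, beside 84.5% of the regions in both lists of the whole series. The median ratio of replicate 1 to replicate 2 was 2.05 (interquartile range 1.33 to 2.90), beside 2.00 on the other autosomes. The largest ratios were 8.23 at 410910 to 411119 (49.0 and 5.95), 7.25 at 2204126 to 2204450 (72.6 and 10.0) and 6.72 at 6196925 to 6197101 (20.4 and 3.03). The smallest were 0.199 at 11759175 to 11759733 (4.05 and 20.3), 0.322 at 11545316 to 11545474 (2.75 and 8.54) and 0.334 at 14144025 to 14144212 (5.98 and 17.9). The 3 largest lay in the left and middle sections and the 3 smallest on the right. The median ratio differed little, however, at 2.09 on the left, 1.90 in the middle and 2.02 on the right. The 3 smallest ratios had replicate 1 scores of 2.75 to 5.98, where the lowest deposited score of that list is 2.08.

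**Figure D3:**
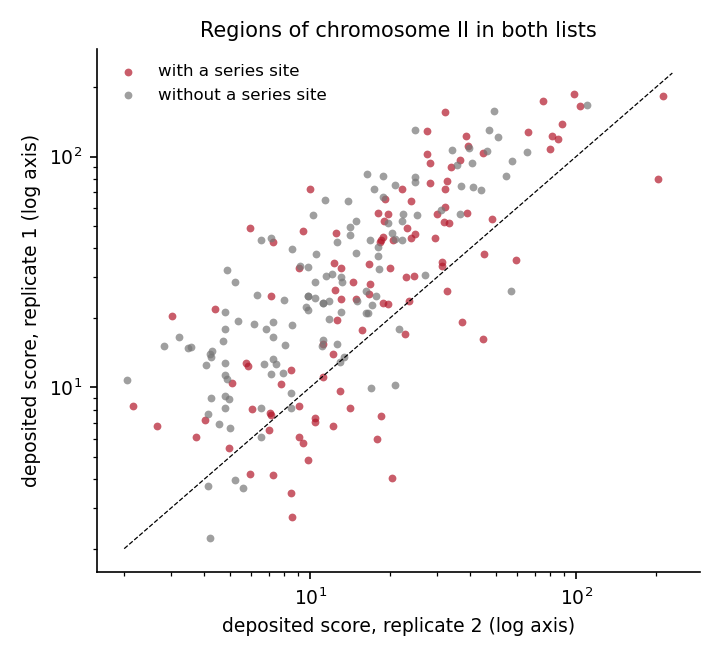
Deposited score in replicate 1 (vertical) against replicate 2 (horizontal), both axes logarithmic, for the 236 chromosome II regions in both lists, with (red) and without (grey) a site of the series list. The dashed line marks equal scores. 199 regions lie above the line, and regions below it mostly hold a site.

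Regions found in one list only had low scores and were narrow. In replicate 1 their median score was 6.11 (range 2.08 to 27.9), beside 27.2 for regions in both lists. In replicate 2 it was 5.37 (range 2.00 to 31.3), beside 13.6. Median widths were 86.5 bp for replicate 1 only, 56 bp for replicate 2 only and 210.5 bp for regions in both lists. The last value is raised by the joining of peaks from 2 lists. Scores of at least 10 were reached by 21 of the 120 regions of replicate 1 only and by 12 of the 87 of replicate 2 only.

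**Figure D4:**
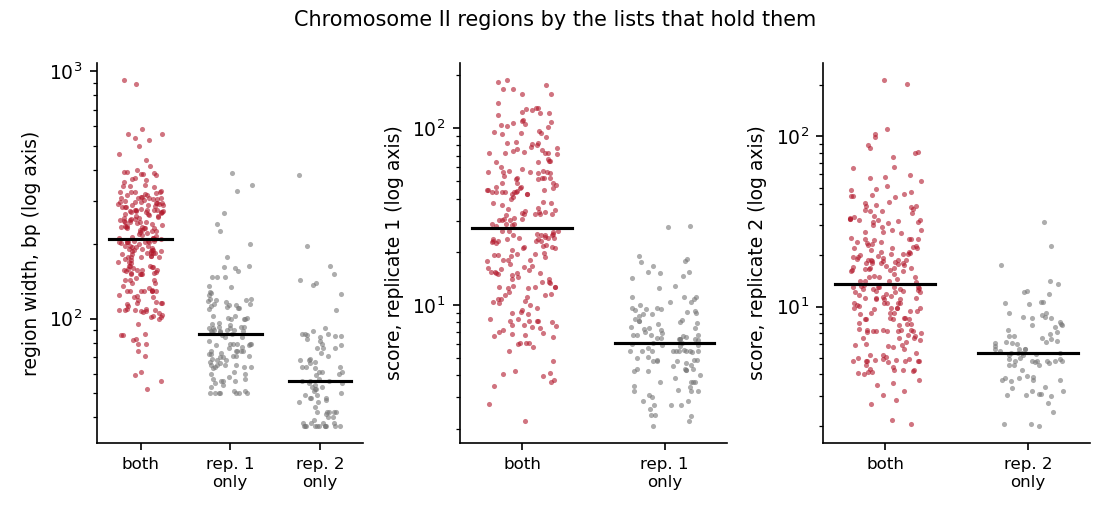
Width in bp and deposited score (logarithmic axes) of chromosome II regions by the lists that hold them, with 1 point per region (red in both lists, grey in 1 list) and a bar at the median. Regions in both lists have a median width of 210.5 bp, and the medians of the one-list classes are 86.5 and 56 bp.

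The one-list regions of the replicates differed in shape. The narrowest of replicate 1 only was 50 bp wide. Of those of replicate 2 only, 18 of 87 (20.7%) were at most 40 bp wide, and the narrowest was 37 bp. Narrow regions were also among the strongest of replicate 2 only. The region at 3797292 to 3797329 scored 31.3 at 38 bp, that at 5146628 to 5146664 scored 17.55 at 37 bp, and that at 14338436 to 14338475 scored 13.6 at 40 bp. The region at 10336262 to 10336314 scored 14.2. In replicate 1 only, the strongest beside those named above were at 8442333 to 8442447 (27.7), 10926233 to 10926328 (18.2) and 5839347 to 5839466 (17.7). A region in both lists lay within 1 kb of 23 of the 120 regions of replicate 1 only (19.2%) and of 26 of the 87 of replicate 2 only (29.9%).

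Few regions in both lists rested on a narrow overlap. The median stretch shared by the lists was 157 bp, and 4 of the 236 regions shared 20 bp or less. The least was 5 bp, at 7123145 to 7123306 (scores 8.28 in replicate 1 and 2.15 in replicate 2), followed by 17 bp at 13817882 to 13817976 (6.68 and 4.99) and 19 bp at 4554922 to 4555000 (3.66 and 5.61). On the other side of the rule, 1 pair of regions of opposite lists lay within 100 bp of each other. These were the peak of replicate 1 at 10543729 to 10543876 (score 5.46) and that of replicate 2 at 10543951 to 10544017 (score 6.74), with 74 bp between them. The lowest-ranked regions in both lists were similar in score to the one-list regions. They were at 10548751 to 10548850 (2.22 and 4.21), 11757178 to 11758063 (3.75 and 4.13), 10542739 to 10542809 (6.81 and 2.66), 1132905 to 1133026 (6.11 and 3.71) and 8516836 to 8516917 (7.19 and 4.03).

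Regions came in tight groups at a few places. The median distance between neighbouring regions in both lists was 37.3 kb, while 20 of 235 gaps were 500 bp or less (8.51%). Of 153 windows of 100 kb, 44 had no region in both lists, 46 had 1, 30 had 2 and 12 had 3. The remaining windows held more, 16 of them 4 regions, 3 of them 5, 1 of them 6 and 1 of them 9.

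The fullest window, from 13800001 to 13900000, held 9 regions in both lists, 9 of replicate 1 only and 2 of replicate 2 only. Most were packed together. Between 13817741 and 13823761, 10 regions followed each other with less than 1 kb between neighbours and covered 3024 bp of 6021 bp. This run contained the widest region of the chromosome, at 13821188 to 13822106 (919 bp, scores 26.1 in replicate 1 and 16.2 in replicate 2). The strongest in the window was at 13819683 to 13820180, with scores of 57.15 and 38.9, and next was the region at 13823081 to 13823637, with 46.0 and 24.8. The 9 regions in both lists were broad, with a median width of 383 bp, and moderate in score, with medians of 20.9 in replicate 1 and 16.2 in replicate 2. No region of this window was among the 15 best of the chromosome. Without this window the right section still held a larger share than on the other autosomes, by 13.8 percentage points.

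The second fullest window lay in the sparse left section. From 1130330 to 1135132, a stretch of 4803 bp, 6 regions in both lists followed each other and no region of 1 list lay in the window. The strongest were at 1134825 to 1135132 (44.5 in replicate 1 and 23.95 in replicate 2) and 1134304 to 1134670 (26.0 and 32.7). The other 4 scored 5.47 to 8.99 in replicate 1 and 3.71 to 10.5 in replicate 2. A site of the series list lay in 5 of the 6.

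The windows with 5 regions in both lists mixed strong and weak ones. From 5300001 to 5400000, the region at 5346333 (139 in replicate 1 and 88.8 in replicate 2) was followed after 526 bp by one at 5347239 to 5347367, which scored 26.1 and 56.8. The same window held a region at 5389993 to 5390290 that scored 122 and 38.7. From 10500001 to 10600000, the strong region at 10563313 had neighbours that scored 2.22 to 32.9 in replicate 1. From 14300001 to 14400000, the regions at 14357846 and 14383588 were accompanied by 3 that scored 6.56 to 33.4 in replicate 1.

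One group was long, weak and mostly seen in a single list. From 11756749 to 11761721, 11 regions lay within 4973 bp, of which 3 were in both lists and 8 in replicate 1 only. Replicate 1 scored 3.75 to 10.9 throughout. Replicate 2 scored 4.13 to 20.3 in the 3 regions it shared. This group held the second widest region of the chromosome, at 11757178 to 11758063 (886 bp), in which the peaks of the lists shared 41 bp, and the region with the lowest score ratio. In contrast, the third widest region, at 14251270 to 14251853 (584 bp), stood alone with scores of 56.4 and 19.7. Between 13939877 and 13941298, 5 regions of replicate 2 only lay within 1422 bp with scores of 2.73 to 8.93, and replicate 1 had no peak there.

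The series list attached 132 sites to chromosome II, and 0 of them lay outside the peaks of both replicates. Regions in both lists held 119 sites, regions of replicate 1 only held 3 and regions of replicate 2 only held 10. A site was present in 109 of the 236 regions in both lists (46.2%, 95% exact interval 39.7 to 52.8%), beside 45.2% in the whole series. On the other autosomes the share was 44.8% (429 of 957, Fisher's exact p = 0.716, adjusted p = 0.716). Only 3 of 120 regions of replicate 1 only had a site (2.50%, 0.519 to 7.13%). Among regions of replicate 2 only it was 10 of 87 (11.5%, 5.65 to 20.1%).

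The strongest regions did not all have a site. Of the 15 best, 10 held one. Those at 11534868, 11132565, 6269808, 8569284 and 14357846 had none, although their scores were 104 to 166 in replicate 1 and 47.2 to 110 in replicate 2. When the regions were cut by mean rank into 4 groups of 59, sites were present in 35, 30, 19 and 25 regions from the best to the lowest group. Sites were more frequent where replicate 2 scored higher. They were in 26 of the 37 regions with the higher score in replicate 2 (70.3%, 53.0 to 84.1%) and in 83 of the 199 with the higher score in replicate 1 (41.7%, 34.8 to 48.9%). Median replicate 2 scores were 18.4 with and 11.4 without a site, while those of replicate 1 were 32.9 and 24.8. How the series list was built is not given in the sources used here, so these shares are a description.

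Within the regions, sites were short. Sites in regions of both lists had a median width of 82 bp and covered a median of 34.6% of the region. When these sites were divided by the geometric mean score of their region, 31 of the 40 in the lowest group covered the centre of the region (77.5%, 95% exact interval 61.5 to 89.2%). In the middle group it was 15 of 39 (38.5%, 23.4 to 55.4%). In the highest group it was 4 of 40 (10.0%, 2.79 to 23.7%). The median distance from the site's midpoint to the centre was 16, 53 and 94.5 bp in the lowest, middle and highest groups. The regions also differed in width, with medians of 165, 269 and 296 bp, and a site took a median of 67.6%, 33.5% and 24.4% of its region in the lowest, middle and highest groups. A site wider than 50% of the region that contains it covers the centre by construction, so the count in the lowest group is set in large part by width. Of the 119 sites, 64 lay to the left of the centre and 53 to the right, and in the lowest group 25 lay to the left and 14 to the right.

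**Figure D5:**
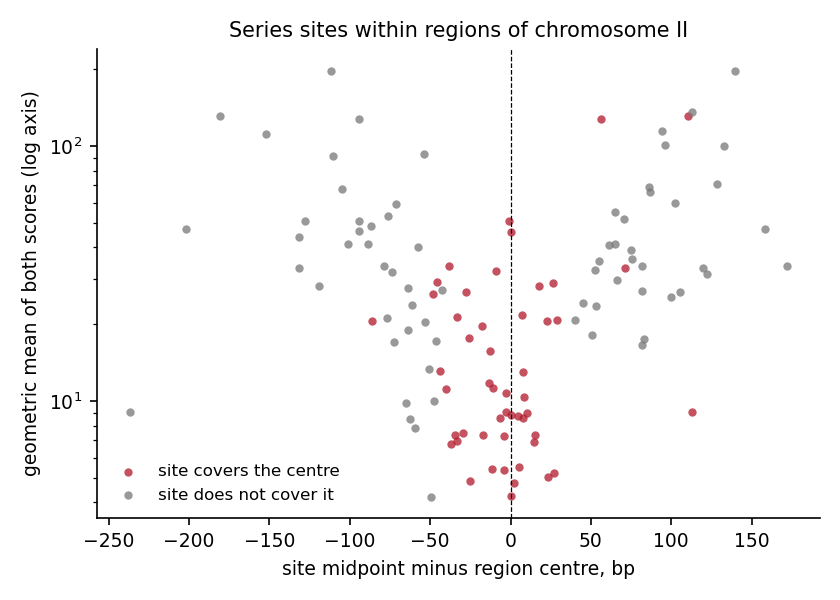
Distance in bp from the centre of a region to the midpoint of its series site (horizontal, negative to the left) and the geometric mean of the scores in both replicates (vertical, logarithmic), for the 119 sites in chromosome II regions of both lists. Sites that cover the centre are red. In the lowest score group, where a site takes a median of 67.6% of its region, 31 of 40 sites cover the centre, while in the highest group 4 of 40 do and the points divide into a left and a right arm.

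In 10 regions of both lists 2 sites lay side by side. In 4 of them the pair flanked an uncovered centre. These were at 650386 (45 bp between the sites), 8062245 (99 bp), 13819683 (282 bp) and 13825118 (126 bp). In the other 6, at 2221559, 9108466, 10563313, 11759175, 13823081 and 14528219, one of the sites covered the centre. The fullest window, from 13800001, thus supplied 3 of the 10.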

How the data were processed

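ChIP-seq peaks of LIN-53 in L3 larvae were analysed from 3 deposited interval lists, 1 for each ChIP replicate and 1 for the whole series. MACS, a program that calls peaks, is named in the source column of the lists as deposited, and coordinates are in WS220, per the file headers. BWA is the aligner named, per the submitters' processing notes. For versions, settings and how the input entered the calling, the entry is: not given in the sources used here. Each peak or site carries a deposited score made by the authors, whose scale is not stated. How consistent sites were formed is not stated either. Series scores were not set against replicate scores in size. They served only to group sites in the closing observations, where replicate score ratios are given by group.

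Overlapping chromosome II peaks were joined at 1 bp, and a site was attached at 1 bp. The other autosomes were treated in the same way. Shares were compared with two-sided Fisher's exact tests and density with a two-sided exact binomial test, with Clopper-Pearson intervals that cover counting only and Benjamini-Hochberg adjustment over 4 tests (6 with the 2 added). Calls used an adjusted p of 0.05. Scores, widths and site positions are described without tests, since 2 libraries of 1 group allow none. The members and the comparisons were chosen with earlier results of these data known. Named regions were the 15 best and 5 lowest by mean score rank, the 5 highest of each one-list class, the 3 widest, the 3 extremes of the score ratio on either side and those of the windows with most regions. The third place among windows was shared by 3 windows, and all are given. Runs of close regions were named after their values were seen. The joining and the estimated shares and density ratio were checked on simulated peaks that were placed without close groups and without sites. The p-values and the attaching of sites were not checked in this way. Python 3.11.15, numpy 2.4.6, scipy 1.17.1, pandas 2.3.3 and matplotlib 3.10.9 were used.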

Additional observations from a re-analysis of the deposited data

How the results depend on the processing

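The 7 results were recomputed under 47 alternatives, of which 42 left direction and side of the threshold as they were, or the count within 1.5 times. The other 5 all belonged to the planned results. Every alternative of the left and right sections, which were added after the values had been seen, counted among the 42. The pooled count therefore overstates how stable the planned results were. Against all other chromosomes, X included, the share of regions in both lists was higher on II by 8.25 percentage points (Fisher's exact, adjusted p = 0.00690) and the density ratio was 1.31 (exact binomial, adjusted p = 0.00106). Both were then past the threshold, and X, with 2.37 regions in both lists per Mb and 20.7% of its regions in both, is the only difference in that setting. With peaks at or above the median score of their list, 225 regions were left by construction, and the difference in the share with a site turned to -0.0367 points. The density ratio turned to 0.948 without replicate 1 and was 1.06 without replicate 2. The cause was not tested for these reversals, and neither was past the threshold in any setting with the other autosomes as comparison. The middle section differed by -5.46 to -3.16 points when a replicate was left out. The left section differed by -12.6 to -9.29 points and the right section by 14.7 to 15.8 points without a replicate, with series sites by -11.8 and 12.7 points, and with joining within 500 bp by -13.2 and 13.3 points. These comparisons were chosen after seeing the data, and their alternatives use the same or nested lists, so they are no separate support. Shares of regions in both lists cannot be had from a single replicate. No paired analysis was possible because peaks of the input libraries were not analysed here. As the depth is unknown, LIN-53 may be present where 1 list lacks a peak.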

Other observations

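Of the 119 series sites in chromosome II regions of both lists, 94 scored 1.5 or above, 11 scored from 0 to 1.5 and 14 scored below 0, down to -1.98. The median ratio of replicate 1 to replicate 2 was 0.697 in the regions of the 14 sites below 0, and 9 of these had the higher score in replicate 2. It was 0.706 for the 11 sites from 0 to 1.5, of which 7 had the higher score in replicate 2. It was 1.85 for the 94 sites, of which 13 had the higher score in replicate 2. These values were taken per site, so the region at 11759175 to 11759733 counted for each of its 2 sites below 0. Sites with scores above and below 0 could lie in the same region, and such a region counted in more than 1 group. The highest-ranked region, at 650386 to 650847, had a site with a score of 1.88 on its left and one with -1.81 on its right. The region at 14528219 to 14528603 had scores of -1.94 and 1.97. The scale of this score is not stated, and the comparison was made after the values were seen and was not tested.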
